A study of Mus musculus with 12 samples.

Results

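Peaks of open chromatin at 9 genes of the insulin-like growth factor axis were compared between wild-type (WT) and SgshKO mice in microglia, NeuN+ nuclei and Olig2+ nuclei. The genes were the ligand Igf1, the receptors Igf1r, Igf2r and Insr, the adaptors Irs1 and Irs2, and the binding proteins Igfbp2, Igfbp4 and Igfbp5. A peak was taken as belonging to a gene when the deposited table named that gene as having the nearest transcription start site (TSS). By that rule 175 of 281974 peaks were members: 81 of 91770 in microglia, 55 of 107627 in NeuN+ nuclei and 39 of 82577 in Olig2+ nuclei. Igf1 had 5 microglia peaks and 1 in each nuclei sort, and Igf1r had the most in each table (33, 13 and 18). The genes were chosen by measured values in microglia, where an Igf1 peak was far higher in SgshKO, so the microglia values below are a description without a test, and tests are given only in the nuclei.

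Open chromatin was measured with ATAC-seq (adapters are added by a transposase where DNA is accessible) in forebrain of C57BL/6 mice aged 4 months. SgshKO mice lack Sgsh, the lysosomal sulfamidase that degrades heparan sulfate and whose loss models Sanfilippo syndrome type A. The labels do not say how the allele was made, whether mice were pooled, or which animal or sex gave a library. Microglia were sorted as live CD11b+, CD45low, CX3CR1+ cells of WT or SgshKO mice. NeuN+ nuclei (PU.1-, Olig2-) and Olig2+ nuclei (PU.1-, NeuN-) were sorted after light formaldehyde fixation, from WT or SgshKO mice of the same strain and age. Each of the 6 groups had 2 libraries, and p-values measure only the spread between these libraries, which may be technical.

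Insulin-like growth factor 1 and insulin bind related receptor tyrosine kinases, which phosphorylate the insulin receptor substrates and so switch on PI3K, Akt and mTORC1 signalling. Secreted binding proteins hold most of the growth factor in the extracellular space and set how much of it reaches the receptors. In brain, microglia are a known source of Igf1 around white matter, and the axis is known for its roles in myelination and neuronal survival. Igf2r is also the cation-independent mannose 6-phosphate receptor, which carries newly made lysosomal enzymes to lysosomes.

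Microglia libraries held 10771659 to 11804222 tags, NeuN+ libraries 14326703 to 17706971 and Olig2+ libraries 15044194 to 19555924, with 17 to 39 reads in the median peak. Values are tags per peak after the authors' scaling of each library to 10000000 tags, so counting error is large at low peaks and no value is set across tables except as a description. Each peak set was, by its name, merged over WT and SgshKO. A peak that is low in WT or in SgshKO can thus be listed through the other group alone, and the tests do not allow for that. Peaks took 55.75% and 48.68% of the tags in WT microglia and 67.44% and 53.65% in SgshKO microglia, and the pair of SgshKO microglia libraries differed more than any other pair (chi-square per degree of freedom 6.44, against 1.82 or less). In NeuN+ nuclei that share was lower in SgshKO (21.54% and 21.23%) than in WT (26.71% and 25.93%), and in Olig2+ nuclei it was 30.92% to 31.84% throughout. Start-site peaks were present for 7 of 8 microglia markers in microglia (none for Aif1), 8 of 8 neuron markers in NeuN+ nuclei and 8 of 8 oligodendrocyte-lineage markers in Olig2+ nuclei. Blood myeloid and endothelial markers had 0 start-site peaks in either nuclei sort. In microglia, 2 of 6 blood myeloid and 2 of 5 endothelial markers had one. So did 5 of 8 oligodendrocyte-lineage, 3 of 6 astrocyte and 2 of 8 neuron markers there. Tags summed over the oligodendrocyte-lineage markers read 327 and 285 in WT microglia and 327 and 293 in SgshKO microglia. The microglia markers read 2101 and 1809 against 2264 and 1733. The part of other cell types in the microglia values was not tested. The peak at the Sgsh start was present in SgshKO libraries (257 and 260 tags in microglia, 9.07 and 13.3 in NeuN+, 60.9 and 69.1 in Olig2+ nuclei), and accessibility there does not check the genotype label.

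Start-site sequences are shown for Irs1, Irs2 and Igf1r, which had promoter peaks that passed the test in both nuclei sorts, and for Igf1 and Igf2r for comparison. The Igf1r window does not reach those peaks, at -465 bp (NeuN+) and -487 bp (Olig2+). It overlaps the peaks at 48 bp (NeuN+) and 65 bp (Olig2+), and the latter did not pass the test. The 250 bases before a RefSeq start were available for 8 of the 9 genes (9 windows, mouse build GRCm38.p6), and Insr had no entry. Each is written 5′ to 3′ along the gene, with motif matches in capitals. The windows are chr1:82291440-82291689 (minus strand) for Irs1, chr8:11008930-11009179 (minus) for Irs2, chr17:12769707-12769956 (minus) for Igf2r, chr10:87860861-87861110 (plus) for Igf1 and chr7:67952007-67952256 (plus) for Igf1r.
Irs1: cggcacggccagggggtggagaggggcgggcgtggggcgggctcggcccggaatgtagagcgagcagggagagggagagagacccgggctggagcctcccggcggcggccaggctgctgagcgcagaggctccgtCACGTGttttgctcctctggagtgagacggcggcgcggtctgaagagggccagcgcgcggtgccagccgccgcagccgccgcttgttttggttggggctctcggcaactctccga
Irs2: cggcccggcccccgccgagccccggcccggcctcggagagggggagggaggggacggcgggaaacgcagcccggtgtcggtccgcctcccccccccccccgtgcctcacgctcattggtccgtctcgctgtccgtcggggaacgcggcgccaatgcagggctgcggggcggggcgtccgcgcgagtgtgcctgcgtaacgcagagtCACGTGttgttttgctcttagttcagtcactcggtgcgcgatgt
Igf2r: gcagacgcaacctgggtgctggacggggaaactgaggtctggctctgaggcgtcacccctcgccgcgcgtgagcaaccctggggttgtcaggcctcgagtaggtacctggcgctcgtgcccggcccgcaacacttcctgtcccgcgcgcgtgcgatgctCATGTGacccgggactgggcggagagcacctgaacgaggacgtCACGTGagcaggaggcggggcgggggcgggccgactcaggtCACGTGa
Igf1: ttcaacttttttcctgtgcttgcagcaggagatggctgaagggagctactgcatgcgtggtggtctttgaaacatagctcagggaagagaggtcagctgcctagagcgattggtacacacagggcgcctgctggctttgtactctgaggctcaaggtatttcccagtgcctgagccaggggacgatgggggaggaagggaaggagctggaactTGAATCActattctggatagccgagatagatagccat
Igf1r: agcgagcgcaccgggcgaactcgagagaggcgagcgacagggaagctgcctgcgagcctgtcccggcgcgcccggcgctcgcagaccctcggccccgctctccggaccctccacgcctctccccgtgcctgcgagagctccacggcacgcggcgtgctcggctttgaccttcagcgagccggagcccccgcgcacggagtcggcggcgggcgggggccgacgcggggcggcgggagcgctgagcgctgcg
Capitals mark CACGTG (the E-box that MITF, TFEB and TFE3 can bind), CATGTG and its reverse complement CACATG, or TGANTCA (the AP-1 motif). GAGGAAGT and its reverse complement ACTTCCTC, the PU.1 motif, were also searched and matched 0 of the 9 windows. CACGTG was found in 4 of the 9 windows: with its first base at -115 in Irs1, at -44 in Irs2, at -48 and -7 in Igf2r, and at -142 in 1 of the 2 Igfbp2 windows. CATGTG was at -91 in Igf2r, and TGANTCA was at -37 in Igf1 and at -39 in the other Igfbp2 window. Among all 32851 such windows, 6.02% held CACGTG, 12.3% CATGTG, 2.44% GAGGAAGT and 6.75% TGANTCA. A match describes the letters and is not evidence of binding. NeuN+ peaks covered 173 of the 250 bases in Irs1, 216 in Irs2, 215 in Igf2r and 61 in Igf1r, while the Igf1 window lay in no peak of any sort.

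At Igf1 in microglia, 4 of the 5 peaks had both SgshKO libraries above both WT libraries, and the highest of them lay far upstream of the gene. Both SgshKO libraries lay above both WT libraries at 21082 of all 91770 microglia peaks, and groups did not overlap in either direction at 51.1%. The intergenic peak at -161597 bp from the TSS (chr10:87696514-87696822, build mm10) held 0.86 and 1.69 tags in WT and 78.8 and 59.4 in SgshKO. These values stand for 1 and 2 reads in WT and 91 and 64 in SgshKO, a read ratio of 54.1 with an exact binomial 95% interval of 18.2 to 265, which covers counting error only. The peak can be listed through the SgshKO libraries alone. The interval does not allow for that, or for the choice of the genes by microglia values. Its log2 change was 4.96, and it was 4.76 without SgshKO library 1 and 5.16 without library 2. RefSeq places the pseudogene Gm20006 (chr10:87759143-87759566) and the lncRNA Gm30073 (chr10:87777237-87798372) between this peak and Igf1. Both are thus nearer to the peak than Igf1 is, and which gene the site acts on was not tested. In bulk libraries such as these, a change in the share of cells with an open site and a change in signal per cell cannot be told apart. The peaks at -28053 and -27443 bp lie nearer to Igf1, within the antisense lncRNA Igf1os of RefSeq (chr10:87826756-87863393). The peak at -28053 bp held 6.05 and 1.69 tags in WT and 13.9 and 10.2 in SgshKO (log2 change 1.57, read ratio 3.14, interval 1.43 to 7.59). The peak at -27443 bp held 6.91 and 6.78 tags in WT and 23.4 and 23.2 in SgshKO (log2 change 1.63, read ratio 3.4, interval 1.91 to 6.39). In each, the 4 libraries separated by genotype, and the interval covers counting error only.

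The 2 promoter peaks of Igf1 in microglia differed from each other in that respect. The peak at -885 bp from the upstream start (chr10:87857275-87857486, annotated as promoter of NM_001314010) held 6.05 and 10.2 tags in WT and 20.8 and 18.6 in SgshKO (log2 change 1.22, read ratio 2.43, interval 1.39 to 4.4). The peak at -826 bp from the downstream start (chr10:87860125-87860446, annotated as promoter of NM_001111276) held 24.2 and 17.8 tags in WT and 23.4 and 18.6 in SgshKO. Its genotypes overlapped, with a log2 change of 0.01 and a read ratio of 1.0 (0.659 to 1.53). It lies 2.0 kb inside Igf1 as RefSeq draws the gene (chr10:87858265-87937047). A difference between the 2 peaks was not tested, and the intervals cover counting error only.

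**Figure D1:**
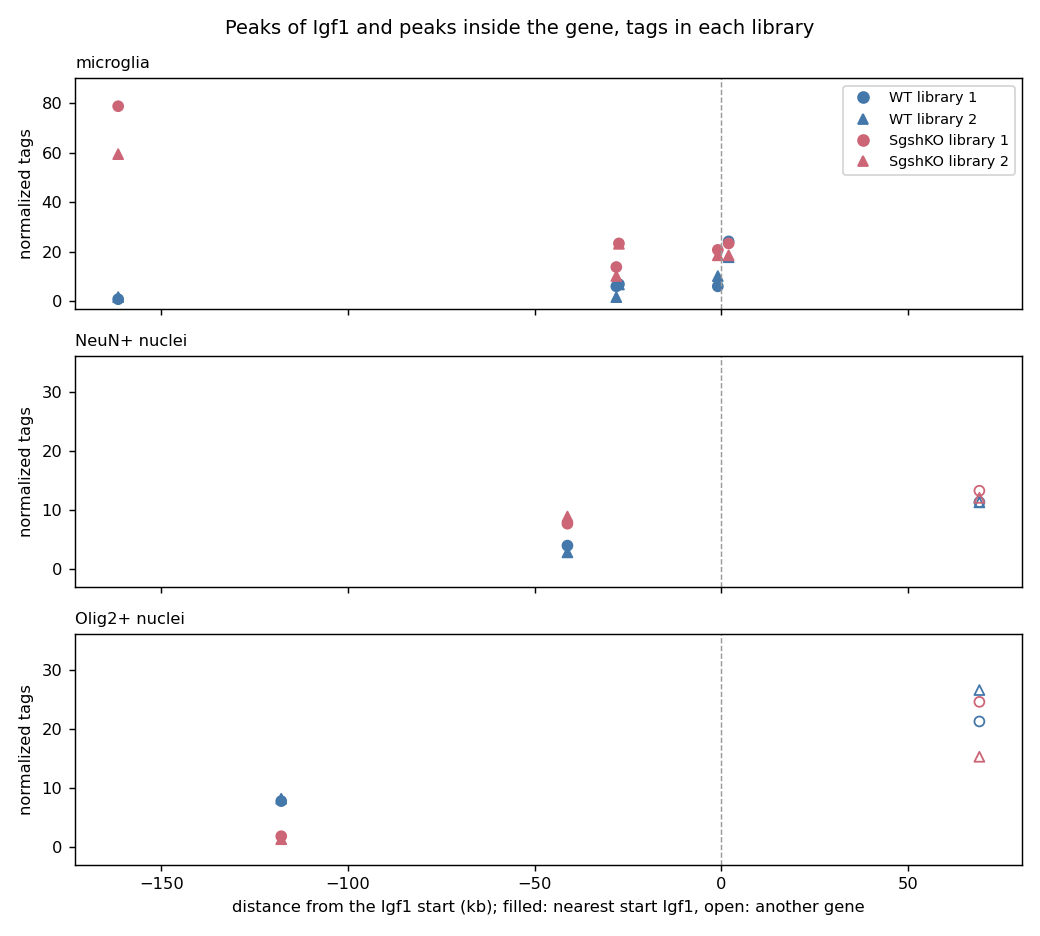
Normalized tags (y axis, with a longer scale for microglia than for nuclei) in each of the 4 libraries of a sort at the Igf1 peaks and the peaks inside the gene, by distance from the Igf1 start (x axis, kb). Blue is WT and red is SgshKO, and open symbols are peaks that the deposited annotation gives to another gene. Both SgshKO libraries lie above both WT libraries at every microglia peak drawn except the one 2.0 kb inside the gene.

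In NeuN+ nuclei the only Igf1 peak rose at -41244 bp (chr10:87816914-87817129, intergenic). It held 3.97 and 2.82 tags in WT and 7.68 and 8.89 in SgshKO, with both SgshKO libraries above WT, as at 24.1% of all NeuN+ peaks. The log2 change was 1.09 ± 0.37 (SE, n = 2 and 2; limma adjusted p = 0.0325), on 12 reads in WT and 25 in SgshKO. The call was lost with DESeq2 (adjusted p = 0.334), with quantile normalization (0.0532) and without each library in turn (0.0979 to 0.184).

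In Olig2+ nuclei the only Igf1 peak fell, at -117895 bp (chr10:87740267-87740473, intergenic). Its 4 libraries held 7.78 and 8.18 tags in WT against 1.84 and 1.33 in SgshKO. The log2 change was -1.8 ± 0.41 (SE, n = 2 and 2; adjusted p = 0.00221), on 31 reads in WT and 5 in SgshKO. The peak can be listed through WT alone, and the p-value does not allow for that. The call was lost without WT library 1 (adjusted p = 0.162) or WT library 2 (0.182), and DESeq2 gave this low peak no adjusted p. RefSeq places Gm20006 and Gm30073 between the Olig2+ peak at -117895 bp and Igf1 as well. No Igf1 peak of a sort overlapped one of another sort. Neither nuclei sort had an Igf1 peak within 1000 bp of a TSS. Both had a peak 69.2 kb inside Igf1 that the tables give to the pseudogene Tyms-ps, with overlapping genotypes in Olig2+ nuclei (21.3 and 26.6 tags in WT, 24.6 and 15.3 in SgshKO) and 11.3, 11.3, 13.3 and 12.1 tags in NeuN+ nuclei.

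The microglia peaks most like the Igf1 peak at -161597 bp were those with the smallest root-mean-square distance of log2(tags + 1) over the 4 libraries. They were near Gpat3 (distance 0.69; 2.59 and 4.24 tags in WT, 64.1 and 54.8 in SgshKO), 4930405A10Rik (0.7), Mir7661 (0.77), Folr1 (0.8; 0.86 and 1.69 in WT, 32.0 and 29.7 in SgshKO) and Plekha1 (0.8). Folr1 had its peak at 774 bp from the TSS, and the other 4 lay farther from one.

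Over all 81 member peaks of microglia, 45 had groups that did not overlap, where all microglia peaks gave 51.1%. The call rule of an adjusted p under 0.05 took 10 of the 81 (9 higher, 1 lower), beside 7.37% of all peaks (5.05% higher and 2.33% lower). Scaling to tags in peaks gave 17 members (12 higher, 5 lower) and moved the higher share of all calls from 68.5% to 35.1%. Without WT library 1 or 2 the rule took 5 and 3 members, and without SgshKO library 1 or 2 it took 18 and 23. This contrast chose the genes, and nothing is read from these counts. The median log2 change was 0.07 for the members and -0.08 for all peaks. Low peaks separated upward most often: 11 of the 15 member peaks with a WT mean under 10 tags had both SgshKO libraries above WT, as did 56.1% of the 5842 such peaks overall. Among peaks at 10 tags or more it was 15 of 66 member peaks and 20.7% of all. The merged peak set and the sorting on WT favour this split, since a peak low in WT can be listed through SgshKO alone. Nothing is read from it.

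In NeuN+ nuclei 17 of 55 member peaks passed the test, and of these 3 rose and 14 fell. That share lies near the background, in which 29.8% of all NeuN+ peaks were called (10.2% higher and 19.6% lower). Of the 12 member peaks within 1000 bp of a TSS, 6 fell and 0 rose, where all NeuN+ start-site peaks gave 46.6% called, 44.9% lower and 1.74% higher. Of the other 43 member peaks, 8 fell (18.6%, beside 12.6% of all other peaks) and 3 rose. The median log2 change was -0.62 for the member start-site peaks and -0.53 for all start-site peaks, against -0.01 for the other member peaks and -0.11 for all other peaks. Summed tags at the start sites of the 8 neuron markers moved the same way (931 and 860 in WT, 473 and 490 in SgshKO), as did those at the 4 oligodendrocyte-lineage markers with a peak there (140 and 120 against 67.0 and 71.7). The 1 astrocyte marker with a peak there read 137 and 127 against 86.6 and 97.8, and the 1 microglia marker 54.4 and 48.0 against 34.2 and 32.4. The part of these lists, or of the lower share of tags in peaks, in the member results was not tested. Scaling to tags in peaks moved the split of the 18 called member peaks to 11 higher and 7 lower, median-of-ratios scaling gave 9 and 7, and edgeR gave 9 and 10. Over all NeuN+ peaks the higher share of calls went from 34.3% to 66.5%, 57.7% and 58.2% with these, and the median log2 change of all peaks from -0.23 to 0.05 with in-peak scaling. DESeq2 called 4 member peaks, all lower, and quantile normalization called 4 (2 and 2). Over all NeuN+ peaks DESeq2 called 4899, of which 54.5% were higher, and quantile normalization called 16701, of which 62% were higher. Without SgshKO library 1 or without SgshKO library 2 limma called 0 NeuN+ peaks (18 and 13 member peaks at an unadjusted p under 0.05), where edgeR called 10 and 11 member peaks; every NeuN+ call named below was lost in those limma fits. Without WT library 1 or 2 limma called 9 and 10 member peaks.

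In Olig2+ nuclei 11 of 39 member peaks passed the test, and of these 8 rose and 3 fell. Among all Olig2+ peaks 19.8% were called, 8.17% higher and 11.7% lower. Of the 9 member peaks within 1000 bp of a TSS, 4 rose and 0 fell, where start-site peaks as a whole gave 20.3% called, 12.7% higher and 7.56% lower. The median log2 change was 0.31 for the member start-site peaks and 0.05 for all start-site peaks. Start-site tags summed over the 8 oligodendrocyte-lineage markers read 2271 and 2248 for WT against 2041 and 2071 for SgshKO, lower where the member start sites were higher. Neuron markers with a peak there (5 of 8) read 394 and 423 against 464 and 437, and microglia markers (2 of 8) 240 and 233 against 271 and 284. The part of any of these in the member results was not tested. Over all Olig2+ peaks the higher share of calls was 41.2%, and it was 53.5% with edgeR, 53.1% with median-of-ratios scaling and 53.2% with quantile normalization. DESeq2 called 5 member peaks, all of them higher. Among all 82577 Olig2+ peaks it called 3589, and 60.9% of those calls were higher. Without SgshKO library 2 limma called 9, of which 5 were higher and 4 lower.

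**Figure D2:**
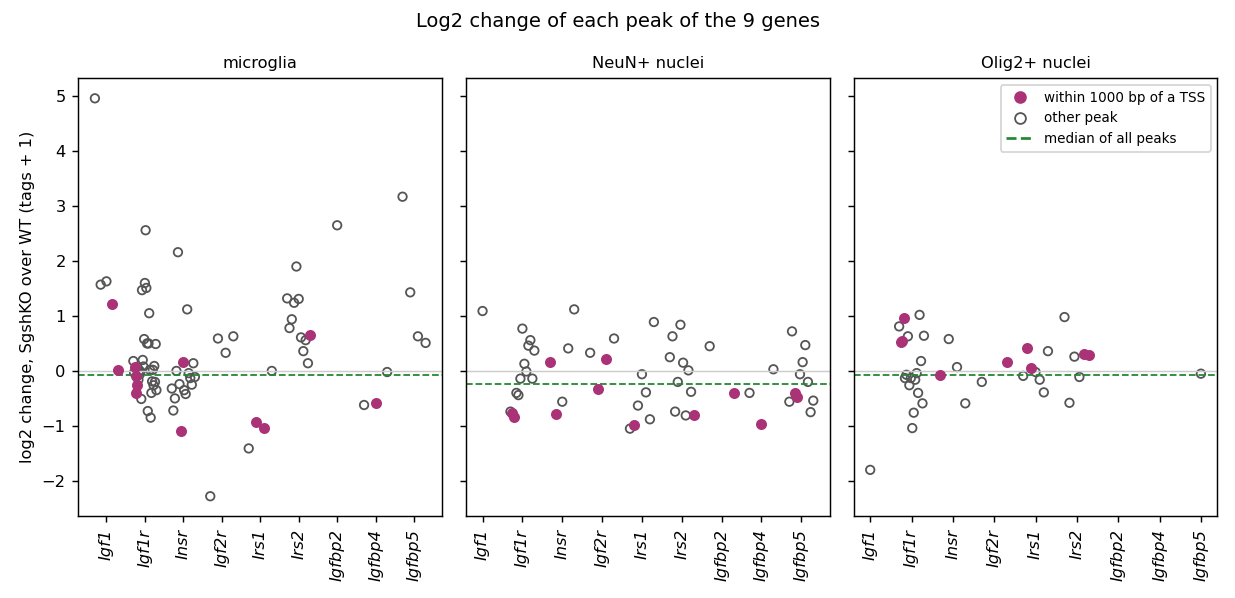
Log2 change of SgshKO over WT (y axis, on tags + 1) for every peak of the 9 genes (x axis), in order of distance to the TSS within a gene, in the 3 sorts. Filled points lie within 1000 bp of a TSS, and the dashed line is the median of all peaks of the sort (-0.08, -0.23 and -0.07). Of the start-site points, 10 of 12 lie below 0 in NeuN+ nuclei, with 1 at Insr and 1 at Igf2r above it, and 8 of 9 lie above 0 in Olig2+ nuclei.

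Igf1r, the receptor tyrosine kinase for Igf1, lost accessibility at its promoter in NeuN+ nuclei and gained it in Olig2+ nuclei. In NeuN+ nuclei the peak at -465 bp (chr7:67951685-67951899) held 135 and 133 tags in WT and 83.1 and 73.7 in SgshKO, a log2 change of -0.77 ± 0.12 (adjusted p = 0.000201). The matching Olig2+ peak at -487 bp held 145 and 165 tags in WT and 215 and 233 in SgshKO, a log2 change of 0.53 ± 0.1 (adjusted p = 0.000271). The genotypes did not overlap in either sort. They separated downward at 70.9% of all NeuN+ start-site peaks and upward at 34.7% of all Olig2+ start-site peaks. The directions were the same farther upstream, where the NeuN+ peak at -1240 bp fell (39.1 and 48.0 tags in WT, 27.9 and 23.5 in SgshKO; -0.74 ± 0.2, adjusted p = 0.0107) and the Olig2+ peak at -1142 bp rose (35.3 and 33.2 in WT, 60.3 and 61.2 in SgshKO; 0.81 ± 0.17, adjusted p = 0.00145). In microglia these sites held 111 and 116 tags in WT and 118 and 106 in SgshKO at -1275 bp, and 133 and 113 against 154 and 108 at -362 bp, with overlapping genotypes. Both NeuN+ falls were lost with DESeq2 (adjusted p = 0.0681 at -465 bp and 0.431 at -1240 bp), which called 0 of the 13 NeuN+ Igf1r peaks. Quantile normalization also ended both calls (0.18 and 0.0973). The fall at -465 bp was lost once the median change of start-site peaks was taken off (0.173). The fall at -1240 bp was lost with in-peak scaling (0.102), median-of-ratios scaling (0.0566) and without WT library 2 (0.153).

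Within Igf1r, changes differed by site. The NeuN+ peak at 48 bp fell (46.5 and 24.3 tags in WT, 14.7 and 22.9 in SgshKO; -0.84 ± 0.28, adjusted p = 0.03), and its call was lost with DESeq2 (0.425), in-peak scaling (0.121), median-of-ratios scaling (0.0912) and quantile normalization (0.162), without WT library 1 (0.449), and once the median change of start-site peaks was taken off (-0.31, adjusted p = 0.439). In Olig2+ nuclei the peaks at 873 bp (0.96, adjusted p = 0.0179) and 142747 bp (1.02, adjusted p = 0.0436) rose, and those at 108782 bp (-1.04, adjusted p = 0.0488) and 118538 bp (-0.76, adjusted p = 0.0151) fell. Leaving out WT library 1 or WT library 2 ended all 4 of these calls, as did leaving out SgshKO library 2 for both rises (0.17 and 0.11) and SgshKO library 1 for the fall at 118538 bp (0.0903). The fall at 108782 bp was lost under 12 alternatives, among them in-peak scaling (0.0508), quantile normalization (0.125), and leaving out WT library 1 (0.149), WT library 2 (0.438) or SgshKO library 1 (0.146). The peak at 65 bp did not pass the test (16.6 and 13.3 tags in WT, 16.0 and 30.6 in SgshKO; 0.55, adjusted p = 0.166), and without SgshKO library 1 it did (0.99, adjusted p = 0.0127). The largest microglia difference of Igf1r was in an intron at 73901 bp (chr7:68026054-68026262), with 5.19 and 2.54 tags in WT and 29.4 and 24.1 in SgshKO (log2 change 2.56, read ratio 6.98, interval 3.44 to 16.0). Picked for its size, that peak can be listed through SgshKO alone. The interval covers counting error only and does not allow for either. The overlapping NeuN+ peak at 73943 bp held 3.97 and 3.39 tags in WT and 7.68 and 6.35 in SgshKO (0.77 ± 0.37), which did not pass the test (adjusted p = 0.116). Of the 33 Igf1r peaks in microglia, 17 had a log2 change above 0 and 16 below.

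Insr, the insulin receptor, fell at its start site in NeuN+ nuclei. The peak at -8 bp (chr8:3279514-3279737) held 77.0 and 78.5 tags in WT and 46.8 and 43.2 in SgshKO, a log2 change of -0.78 ± 0.15 (adjusted p = 0.00111). The change was -0.24 (adjusted p = 0.244) after the median of start-site peaks was taken off, and the call was also lost with DESeq2 (0.192) and with quantile normalization (0.0974). The matching Olig2+ peak at -2 bp held 121 and 132 tags in WT and 128 and 113 in SgshKO (-0.07 ± 0.12, adjusted p = 0.693), with overlapping genotypes. In the intron at 58416 bp the NeuN+ peak fell as well (108 and 90.4 tags in WT, 71.9 and 61.6 in SgshKO; -0.56 ± 0.14, adjusted p = 0.00701), and the low peak at 107130 bp rose (4.53 and 2.82 in WT, 9.77 and 8.25 in SgshKO; 1.12 ± 0.37, adjusted p = 0.0282). DESeq2 called 0 of the 5 NeuN+ Insr peaks. The fall at 58416 bp was lost with it (0.434), with in-peak scaling (0.15), median-of-ratios scaling (0.067), quantile normalization (0.766) and without WT library 1 (0.144). The rise was lost with DESeq2 (0.307), quantile normalization (0.0506) and without WT library 1 (0.0698) or 2 (0.185). In microglia the start-site peak at 16 bp held 68.3 and 75.4 tags in WT against 66.7 and 96.6 in SgshKO. The intergenic microglia peak at -9136 bp differed most, with 5.19 and 5.08 tags in WT and 31.2 and 22.3 in SgshKO (log2 change 2.16, read ratio 5.24, interval 2.79 to 10.7). That peak was picked for its size, and it can be listed through SgshKO alone. The interval covers counting error only and does not allow for either.

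Igf2r, the mannose 6-phosphate receptor, had 0 called peaks of 4 in NeuN+ and 0 of 2 in Olig2+ nuclei by limma, 0 at an unadjusted p under 0.05, and 0 by edgeR or DESeq2. Its NeuN+ peak at -69 bp (chr17:12769630-12769921) held 53.3 and 58.2 tags in WT and 48.9 and 40.0 in SgshKO (-0.33 ± 0.17, adjusted p = 0.148), and its Olig2+ peak at -16 bp held 48.8 and 48.6 against 57.8 and 51.9 (0.17 ± 0.17, adjusted p = 0.505). In NeuN+ nuclei the sign turned to 0.21 after the start-site median was taken off and to 0.03 with quantile normalization. Among all peaks limma called 29.8% in NeuN+ and 19.8% in Olig2+ nuclei. The microglia table held 0 Igf2r peaks within 1000 bp of a TSS. Its intronic microglia peak at 11572 bp held 96.8 and 72.0 tags in WT and 150 and 112 in SgshKO (log2 change 0.63). The microglia peak at -40896 bp was lower in SgshKO (9.51 and 11.0 tags in WT, 4.33 and 0 in SgshKO; log2 change -2.28, and -1.08 without SgshKO library 2).

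Irs1, an adaptor that docks PI3K to the activated receptors, fell at and around its start site in NeuN+ nuclei. The peak at 13 bp (chr1:82291241-82291612) held 137 and 123 tags in WT and 67.0 and 62.2 in SgshKO, a log2 change of -0.99 ± 0.13 (adjusted p = 2.85e-05). After the start-site median was taken off it was still called, at -0.46 (0.0164), as it was at -0.47 with quantile normalization (0.0279). The peak at -1541 bp held 91.2 and 86.4 tags in WT and 48.9 and 36.8 in SgshKO (-1.05 ± 0.16, adjusted p = 0.000157), and the intronic peak at 8036 bp held 126 and 150 against 73.3 and 75.6 (-0.88 ± 0.13, adjusted p = 8.32e-05). With quantile normalization the peak at 8036 bp lost its call (-0.33, adjusted p = 0.101), and the peak at -1541 bp kept it (-0.63, adjusted p = 0.0388). All 3 had every SgshKO library below every WT library, as did 44.4% of all NeuN+ peaks and 70.9% of NeuN+ start-site peaks. A further peak in the exon at 1165 bp fell by 0.63 on the log2 scale (adjusted p = 0.0492), a call lost with edgeR (0.221), DESeq2 (0.67) and a pseudocount of 0.5 (0.051). In-peak scaling (0.303), median-of-ratios scaling (0.193), quantile normalization (0.13) and centring on the median change of other peaks (0.127) ended that call too.

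In Olig2+ nuclei Irs1 rose at 2 of 7 peaks, where 8.17% of all Olig2+ peaks and 12.7% of Olig2+ start-site peaks were called higher. The promoter peak at -206 bp (chr1:82291515-82291775) held 137 and 156 tags in WT and 193 and 196 in SgshKO, a log2 change of 0.41 ± 0.1 (adjusted p = 0.00493). That call was lost without WT library 1 (0.32, adjusted p = 0.122). The intronic peak at 8037 bp held 148 and 170 tags in WT and 196 and 213 in SgshKO (0.36 ± 0.1, adjusted p = 0.0105), a call lost without WT library 1 (0.192) or SgshKO library 2 (0.0567). In microglia, where 28.1% of all peaks had both SgshKO libraries below both WT libraries, SgshKO values were lower at 3 of the 4 Irs1 peaks: 76.9 and 96.6 against 50.2 and 39.9 tags at -180 bp (log2 change -0.93), 15.6 and 22.9 against 13.9 and 2.79 at -1571 bp (-1.41, and -0.42 without SgshKO library 2), and 25.9 and 18.6 against 18.2 and 5.57 at 243 bp (-1.03). At 8068 bp the microglia libraries overlapped (108 and 74.6 in WT, 79.7 and 101 in SgshKO).

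Irs2, the related adaptor, had the highest WT mean of all member peaks at its promoter in Olig2+ nuclei. In NeuN+ nuclei the peak at -602 bp (chr8:11008919-11009145) held 167 and 151 tags in WT and 88.0 and 92.7 in SgshKO, a log2 change of -0.81 ± 0.11 (adjusted p = 6.42e-05). After the start-site median was taken off the change was -0.28 (adjusted p = 0.0878), and with quantile normalization -0.25 (0.108). In Olig2+ nuclei the peak at -574 bp held 280 and 279 tags in WT and 349 and 346 in SgshKO, a log2 change of 0.31 ± 0.07 (adjusted p = 0.00367). Microglia held 95.9 and 115 tags in WT and 132 and 207 in SgshKO at -489 bp (log2 change 0.65). The genotypes separated in each sort, downward in NeuN+ nuclei and upward in the other 2. Start-site peaks as a whole separated downward at 70.9% in NeuN+ nuclei, and upward at 34.7% in Olig2+ nuclei and 32.7% in microglia.

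Upstream of Irs2, both SgshKO libraries lay above both WT libraries at 7 of the 11 microglia peaks, as at 21082 of all 91770. Log2 changes were above 0 at 41003 of all 91770 microglia peaks and at all 11 here, from 0.14 to 1.9. The largest, at -90270 bp (chr8:11098564-11098837, intergenic), held 37.2 and 33.9 tags in WT against 127 and 144 in SgshKO. The NeuN+ peaks there were mixed, with a rise at -55799 bp (11.9 and 6.78 tags in WT, 19.5 and 14.6 in SgshKO; 0.84 ± 0.31, adjusted p = 0.0482) and a fall at -81062 bp (28.3 and 32.8 against 21.6 and 14.6; -0.74 ± 0.24, adjusted p = 0.0257). The fall was lost with edgeR (0.0975), DESeq2 (0.544), in-peak scaling (0.159), median-of-ratios scaling (0.0999) and quantile normalization (0.117). It was also lost with centring on the median change of other peaks (0.0716). Its log2 change was -0.85 without WT library 1 and -0.64 without WT library 2. The rise was lost with DESeq2 (0.287), quantile normalization (0.0747), a pseudocount of 0.5 (0.0512) and without WT library 2 (0.347). In Olig2+ nuclei the peak at -86181 bp rose (11.4 and 10.2 tags in WT, 23.4 and 21.3 in SgshKO; 0.98 ± 0.27, adjusted p = 0.0106), and lost its call without SgshKO library 1 (0.0505) or WT library 2 (0.0775).

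The binding proteins had few peaks in Olig2+ nuclei: 0 for Igfbp2, 0 for Igfbp4 and 1 for Igfbp5. Igfbp5, which binds both Igf1 and the extracellular matrix, had 10 peaks in NeuN+ nuclei, of which 2 fell, where 19.6% of all NeuN+ peaks were called lower. Its intronic NeuN+ peak at 3623 bp (chr1:72871124-72871360) held 111 and 124 tags in WT and 67.0 and 71.7 in SgshKO, a log2 change of -0.75 ± 0.13 (adjusted p = 0.000403). With quantile normalization the change was -0.23 (adjusted p = 0.217), and with DESeq2 the call was lost too (0.113). The peak at -3146 bp also fell (41.9 and 41.2 against 31.4 and 24.8 tags; -0.56 ± 0.2, adjusted p = 0.0387), a call lost with edgeR (0.202) and DESeq2 (0.655). In-peak scaling (0.327), median-of-ratios scaling (0.192), quantile normalization (0.243) and centring on the median change of other peaks (0.119) ended that call too. The start-site peak at -115 bp held 18.7 and 13.6 tags in WT and 9.77 and 14.0 in SgshKO, with overlapping genotypes (-0.41 ± 0.29, adjusted p = 0.278). In microglia all 4 Igfbp5 peaks had log2 changes above 0, as did 41003 of all 91770 microglia peaks. The intergenic Igfbp5 peak at -67571 bp (chr1:72942300-72942572) held 1.73 and 2.54 tags in WT and 25.1 and 28.8 in SgshKO (log2 change 3.17, read ratio 12.6, interval 5.1 to 40.1). It was picked for its size and can be listed through SgshKO alone. The interval covers counting error only and does not allow for either.

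Igfbp2, which binds Igf1 and is abundant in brain, had 1 peak in microglia, at -28195 bp (chr1:72796169-72796402), with 5.19 and 6.78 tags in WT and 40.7 and 44.6 in SgshKO (log2 change 2.65, read ratio 7.11, interval 4.03 to 13.5). The peak can be listed through SgshKO alone, and the interval, which covers counting error only, does not allow for that. The 2 NeuN+ peaks of Igfbp2 did not pass the test: 30.0 and 27.1 tags in WT and 39.1 and 39.4 in SgshKO at -13996 bp (0.45 ± 0.19, adjusted p = 0.0834), and 19.8 and 14.7 against 14.7 and 10.8 at 207 bp (-0.41 ± 0.28, adjusted p = 0.264). Igfbp4, which holds Igf1 until it is cleaved by the protease Pappa, fell at its NeuN+ start-site peak at -35 bp (13.0 and 11.9 tags in WT, 7.68 and 4.44 in SgshKO; -0.97 ± 0.33, adjusted p = 0.0362). That call was lost with edgeR (0.094), DESeq2 (0.578), in-peak scaling (0.125), median-of-ratios scaling (0.0918), quantile normalization (0.0811), without WT library 1 (0.195) or 2 (0.129), and after the start-site median was taken off (-0.43, adjusted p = 0.346). The 3 Igfbp4 peaks of microglia had log2 changes of -0.62, -0.58 and -0.02. At -1272 bp they read 105 and 81.3 tags in WT and 69.3 and 51.1 in SgshKO.

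**Figure D3:**
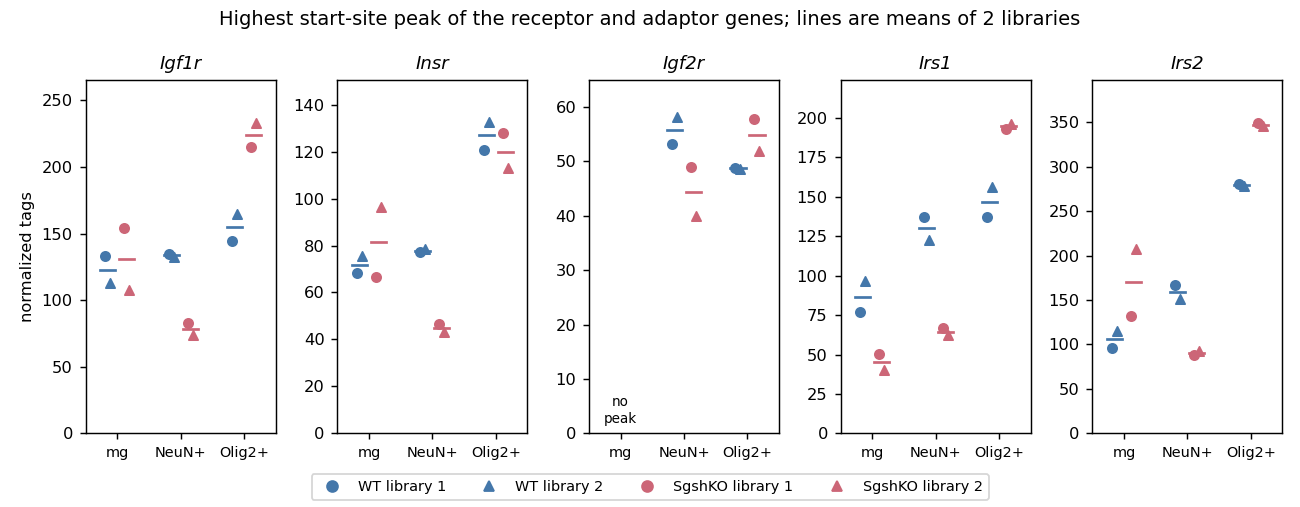
Normalized tags (y axis, from 0, a scale per gene) in each library at the highest peak within 1000 bp of the TSS of the receptor and adaptor genes in microglia (mg), NeuN+ and Olig2+ nuclei, with lines at the means of 2 libraries. Blue is WT and red is SgshKO, and the tables were scaled separately. SgshKO lies below WT in NeuN+ nuclei at all 5 genes, and above WT in Olig2+ nuclei at Igf1r, Igf2r, Irs1 and Irs2.

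NeuN+ and Olig2+ nuclei were then compared at the 15 member peaks that matched uniquely between the tables with a reciprocal overlap of 50%. The genotype effect differed at 10 of the 15, with the NeuN+ change below the Olig2+ change at 9 and above it at 1. Among all 29576 matched peaks 35.0% differed, 31.7% with the NeuN+ change below and 3.29% with it above. Among matched start-site peaks the shares were 51.0%, 49.3% and 1.73%. The median difference was -0.7 for the members and -0.41 for all matched peaks. By limma the comparison used the 8 libraries in 1 fit. DESeq2 gave 5 of the 15, and edgeR, in-peak scaling and quantile normalization gave 6 each.

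The differences with the smallest adjusted p were at the promoters and at the shared Irs1 intron. Irs2 at -602 bp differed by -1.12 ± 0.13 (NeuN+ minus Olig2+ log2 change, SE; adjusted p = 4.59e-08). Igf1r at -465 bp differed by -1.3 ± 0.16 (adjusted p = 7.61e-08). The Irs1 intron at 8036 bp differed by -1.24 ± 0.16 (adjusted p = 2.95e-07), and Igf1r at -1240 bp by -1.54 ± 0.27 (adjusted p = 2.85e-05). These 4 kept an adjusted p under 0.05 in every alternative run, and with the start-site or other-peak medians taken off they were -0.54, -0.72, -1.26 and -1.56. Insr at -8 bp differed by -0.7 ± 0.19 (adjusted p = 0.00398), and by -0.12 (adjusted p = 0.694) once those medians were taken off. The Insr intron at 58416 bp (-0.63, adjusted p = 0.00474), Irs1 at -1541 bp (-0.96, 0.012) and Igfbp5 at 3623 bp (-0.7, 0.0368) lost the call with edgeR (0.465, 0.292 and 0.617) and with quantile normalization (0.716, 0.148 and 0.534). Igf1r at 48 bp differed by -1.39 (adjusted p = 0.00889), and lost the call without NeuN+ WT library 1 (0.138) or Olig2+ SgshKO library 2 (0.124). Igf2r at -69 bp did not pass the test (-0.49 ± 0.24, adjusted p = 0.112).

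A single matched member peak differed in the other direction. At the Igf1r intronic peak near 118536 bp (chr7:68070677-68070910) NeuN+ libraries held 10.8 and 11.9 tags in WT and 17.5 and 14.6 in SgshKO, and Olig2+ libraries held 34.8 and 35.8 in WT against 17.8 and 23.3 in SgshKO. The NeuN+ change exceeded the Olig2+ change by 1.23 ± 0.36 (adjusted p = 0.00757), under every alternative run. The overlapping microglia peak at 118530 bp held 79.5 and 69.5 tags in WT and 119 and 92.8 in SgshKO (log2 change 0.5).

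**Figure D4:**
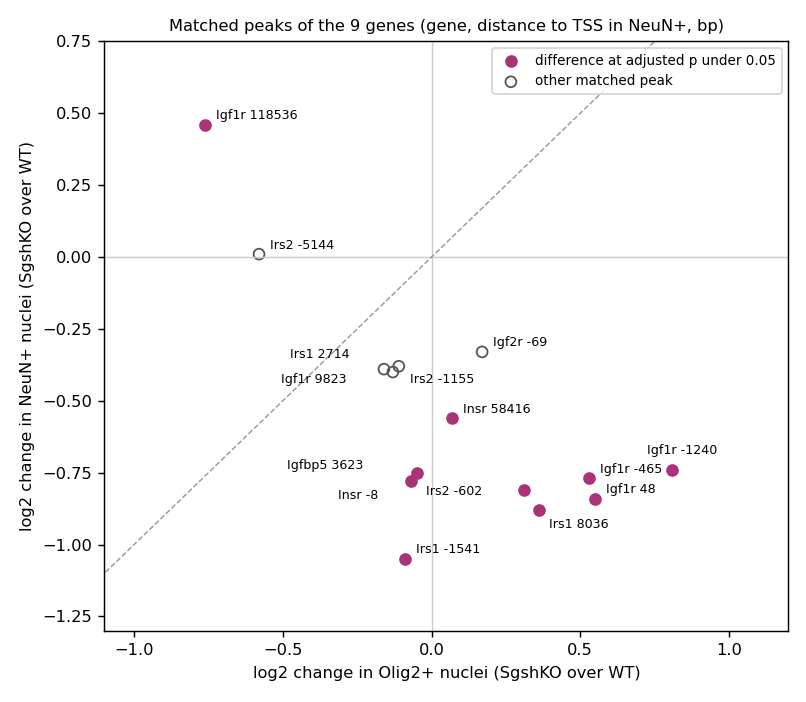
Log2 change of SgshKO over WT in NeuN+ nuclei (y axis) against Olig2+ nuclei (x axis) at the 15 matched member peaks, named by gene and distance to the TSS in bp. The dashed line marks equal change, and filled points differ at an adjusted p under 0.05. The 9 filled points to the lower right lie below the line, and Igf1r at 118536 bp lies above it.

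Of the member peaks, 10 of microglia, 11 of NeuN+ and 12 of Olig2+ nuclei overlapped peaks of both other sorts by at least 50% each way. That is 10 of 81, 11 of 55 and 12 of 39 members, where 18.6%, 16.2% and 21.1% of all peaks did so. Peaks in 1 sort only made up 55, 34 and 17 of the members. Levels at the elements found in all 3 sorts are given per 100 bp of peak, as a description across tables that were scaled separately. At the Insr start WT libraries read 57.0 and 62.5 in Olig2+ nuclei, a mean of 34.7 in NeuN+ nuclei and 20.4 and 22.6 in microglia, so the order Olig2+, NeuN+, microglia had no overlap between neighbours. At the Irs1 intron near 8036 bp they read 56.2 and 64.6 in Olig2+, 49.3 and 58.9 in NeuN+ and 33.2 and 22.9 in microglia, and the former pair overlapped. The Igfbp5 intron near 3623 bp was highest in NeuN+ nuclei (46.8 and 52.2, against 6.78 and 7.31 in Olig2+ nuclei and 2.27 and 3.82 in microglia), as was the Irs1 peak near -1541 bp (44.5 and 42.2, against 5.9 and 4.94, and 5.89 and 8.66). The Igf1r intron near 118536 bp was highest in microglia (37.5 and 32.8, against a mean of 15.3 in Olig2+ and 4.83 in NeuN+ nuclei).

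Other genes of the pathway, a list of 51 that holds further ligands and binding proteins, PI3K and Akt subunits, mTORC1 parts and the FoxO factors, were counted in the same fits. In NeuN+ nuclei 49 of the genes had 289 peaks, of which 25 rose and 60 fell (29.4%, beside the 29.8% of all peaks), with a median log2 change of -0.25. With quantile normalization 46 were called, 31 higher and 15 lower. In Olig2+ nuclei 40 genes had 254 peaks, of which 32 rose and 53 fell (33.5%, beside 19.8%), with a median of -0.11. With quantile normalization 67 were called, 34 higher and 33 lower. In microglia 41 genes had 427 peaks, of which 17 passed the call rule as higher and 39 as lower (beside 5.05% and 2.33% of all microglia peaks), with a median of -0.14.

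Single peaks of that list are given as examples. Rptor, the mTORC1 scaffold raptor, fell in NeuN+ nuclei at 16075 bp (13.6 and 9.6 against 0.7 and 5.71 tags; -1.88 ± 0.49, adjusted p = 0.00835), a call lost with DESeq2 (0.305), quantile normalization (0.0667) and without WT library 1 (0.179) or 2 (0.0719). In Olig2+ nuclei Gsk3a, a kinase that Akt inhibits, rose at 4281 bp (1.56 and 2.56 against 9.22 and 15.3 tags; 2.1 ± 0.39, adjusted p = 0.000306). Ptpn1, a phosphatase that switches off the insulin receptor, fell there at -72072 bp (27.0 and 33.8 against 4.3 and 2.66 tags; -2.82 ± 0.32, adjusted p = 1.54e-07). Gsk3a was low in WT, and Rptor and Ptpn1 were low in SgshKO. Each peak can be listed through the other group alone, and the tests do not allow for that.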

How the data were processed

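ATAC-seq was measured in 12 libraries, 2 in each of 6 groups. Bowtie2, HOMER and the build mm10 are named, without their roles, per the submitters' processing notes; read shifting and the treatment of duplicates are not given in these sources. Each deposited table holds 1 sort, with a signal per peak and library that the authors scaled to 10000000 tags. Its peak set is named as merged over WT and SgshKO. Dividing by what 1 read is worth gave whole reads for 100% of values, within 0.01. Within each table log2(signal + 1) was fitted with limma 3.58.1 (R 4.3.3, moderated with a mean trend), SgshKO against WT, and p-values were adjusted by Benjamini-Hochberg over the whole table. A peak was called at an adjusted p under 0.05, and errors are SE. The difference between NeuN+ and Olig2+ nuclei was an interaction term over peaks matched by 50% reciprocal overlap. The code was tested on simulated data. Read ratios carry exact binomial 95% intervals, which cover counting error only.

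The member genes, the pathway and marker lists and the tests were chosen with earlier results of these data known. Named peaks were every Igf1 peak, and for each other member the peak nearest to the TSS and the largest change (in nuclei, among called peaks), with the largest rise and fall of the pathway list in each nuclei sort (1 of these is not reported here); other member peaks were added after their values were seen. Alternatives were other pseudocounts (0.5 and 5), a filter on the lowest 25% of peaks, scaling to tags in peaks, median-of-ratios and quantile scaling, count tests on the recovered reads (edgeR 4.0.16, DESeq2 1.42.0), a replicate block, and leaving out each library. Leaving out libraries in edgeR, and centring on the median change of start-site and other peaks, were added after seeing the data. Where a library is left out, the lone one is assumed to vary like the others. Peak sequences were not used here, since no genome was given.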

Additional observations from a re-analysis of the deposited data

Results flagged for a closer look

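The genotype effect differed between NeuN+ and Olig2+ nuclei, by the interaction test in limma, at 10 matched peaks. The NeuN+ minus Olig2+ difference in log2 change was -1.54 at Igf1r -1240 bp, -1.3 at Igf1r -465 bp, -1.39 at Igf1r 48 bp and 1.23 at Igf1r 118536 bp. It was -0.7 at Insr -8 bp and -0.63 at Insr 58416 bp. For the adaptors it was -0.96 at Irs1 -1541 bp, -1.24 at Irs1 8036 bp and -1.12 at Irs2 -602 bp, and at Igfbp5 3623 bp it was -0.7.

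Microglia peaks overlapped 17 member peaks of NeuN+ and 19 of Olig2+ nuclei. At 3 and 3 of these pairs every SgshKO library of microglia lay on one side of WT and every SgshKO library of a nuclei sort on the other, and these differences were not tested. Over all overlapping pairs this held at 25.6% (NeuN+) and 14.2% (Olig2+), so the members' counts say nothing particular about them. Microglia exceeded NeuN+ nuclei in log2 change by 1.99 at Igfbp5 -3131 bp and by 1.06 at Igfbp5 4507 bp. The microglia minus NeuN+ difference was -1.26 at Insr -854 bp. Against Olig2+ nuclei it was -1.34 at Irs1 -180 bp, -1.22 at Igf1r 957 bp and 1.26 at Igf1r 118530 bp.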

How the results depend on the processing

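Over the named peaks and all alternatives, 828 values kept their direction and side of the threshold or moved by less than the replicate spread, 129 lost the call, 2 gained it, 57 microglia values moved by more than that spread and 20 values in the nuclei or of the differences changed sign. In microglia 9 further values had the other sign: 6 at Igf1 -826 bp (0.01, and -0.21 to -0.01 there) and 3 at Insr 16 bp (0.16, and -0.28 to -0.04 there). With 17 to 39 reads in the median peak, small changes at low peaks were not detectable at this depth. The cause of the changes between settings was not tested.

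Called NeuN+ peaks numbered 32105, and 4899 with DESeq2, 16701 with quantile normalization, 0 to 14482 by limma and 15714, 18322, 19049 and 19874 by edgeR when a library was left out. The 17 called NeuN+ members became 4 with DESeq2, 4 with quantile normalization, 9 with centring, 0 to 10 by limma and 8 to 11 by edgeR with a library left out, and the 85 pathway peaks became 46 with quantile normalization. Olig2+ calls numbered 16370, and 3589 with DESeq2, 6090 to 15596 by limma and 9985, 10423, 11891 and 12383 by edgeR with a library left out. The 11 Olig2+ members became 5 with DESeq2, 4 to 10 by limma and 8 to 11 by edgeR with a library left out. Microglia peaks past the rule numbered 6765, and 14132 with edgeR, 14522 with in-peak scaling, 11972 with median-of-ratios scaling, 10484 with quantile normalization, 557 to 18850 by limma and 3971, 4792, 19229 and 22363 by edgeR with a library left out. The 10 microglia members became 21, 17, 16 and 20 in those settings, 6 without the lowest 25%, 3 to 23 by limma and 7 to 24 by edgeR with a library left out. The 10 differing matched peaks became 5 with DESeq2, and 6 with edgeR, in-peak scaling or quantile normalization, and 7 to 9 with a library left out.

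The replicate block gave 14489 microglia peaks and 19 members, 35764 NeuN+ peaks and 18 members, 17632 Olig2+ peaks and 10 members, and 10 differing matched peaks. Deviations of same-numbered libraries correlated across peaks at 0.042 in microglia, 0.004 in NeuN+ and 0.001 in Olig2+ nuclei. Such a correlation cannot see a shift shared by whole libraries, so it does not settle whether same-numbered libraries were paired. With a 1 bp overlap, 15 microglia, 14 NeuN+ and 15 Olig2+ member peaks were in all 3 sorts.

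Signs turned in NeuN+ nuclei at Igfbp2 207 bp (0.12, centred), Igfbp5 -115 bp (0.12, centred; 0.03 by edgeR without SgshKO library 1 or WT library 1) and Igf2r -69 bp (0.21, centred; 0.03, quantile; 0.02 by edgeR without SgshKO library 2). In Olig2+ nuclei they turned at Irs1 179 bp (-0.05 without WT library 1) and Insr -2 bp (0.02 without SgshKO library 2, not turned at -0.16 without library 1; by edgeR 0.09 without it and 0.06 without WT library 2). Differences turned at Irs1 2714 bp (0.17, edgeR; 0.01, in-peak), Igf2r -69 bp (0.09, centred), Igf1r 9823 bp (0.28, edgeR; 0.24 without NeuN+ SgshKO library 1, not turned at -0.78 without library 2) and Irs2 -1155 bp (0.16, DESeq2; 0.2, edgeR; 0.01, in-peak; 0.07, quantile).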
